A study of Mus musculus with 8 samples.

Results

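Id proteins, BMP receptors and TGF-beta ligands were compared between astrocyte ribosomes and whole cortex lysate of the adult mouse. The 10 genes are Id1, Id2, Id3 and Id4, the BMP receptor genes Bmpr1a, Bmpr1b and Bmpr2, the TGF-beta receptor gene Tgfbr1 and the ligand genes Tgfb2 and Tgfb3. They were taken by symbol from the 24060 gene rows of the deposited files, all 10 had a row, and all 10 were among the 15605 genes expressed highly enough to be tested. The study made 2 libraries from the cortex of each of 4 mice, young adults of about postnatal day 80; both sexes were used, and the labels do not say which animal was which. One was an input library of RNA from cleared lysate, and the other an HA IP library of RNA on ribosomes pulled down by a hemagglutinin (HA) tag. Every animal had the same genotype, hemizygous Aldh1l1-creERT2 with heterozygous Ribotag, so input is the only control and no precipitate from an animal without Cre was analysed here. Cre/ERT2 is a recombinase that tamoxifen switches on, the Aldh1l1 regulatory sequence limits it mainly to astrocytes, and Ribotag is an allele of the ribosomal protein gene Rpl22 that gains the tag where Cre acts.

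BMPs and TGF-betas are secreted signals of a single family. A ligand dimer joins type II receptor kinases such as Bmpr2 to type I kinases such as Bmpr1a, Bmpr1b or Tgfbr1, and these phosphorylate SMAD proteins that enter the nucleus. BMP receptors act mainly through Smad1, Smad5 and Smad9, and TGF-beta and activin receptors mainly through Smad2 and Smad3. Id genes are classic direct targets of BMP signalling: their products have a helix-loop-helix domain without a DNA-binding part, and hold bHLH transcription factors away from DNA. In the nervous system BMP signals and Id proteins are known for favouring astrocyte over neuron fate.

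The Id genes lie on separate chromosomes in mm10 (GRCm38 coordinates from RefSeq): Id1 on chromosome 2 from 152736251 to 152737410, Id2 on chromosome 12 from 25093799 to 25096092, Id3 on chromosome 4 from 136143822 to 136145392 and Id4 on chromosome 13 from 48261116 to 48266028. Start-site windows of 300 bases, 250 before and 50 after the annotated start, are shown for the 3 of them that had a window, Id2, Id3 and Id4. They come from RefSeq (build GRCm38.p6), whose table matched 8 of the 10 genes. Capitals mark GGCGCC, a GC-rich motif bound by BMP-activated SMADs, GTCT, the short SMAD box, and CCAAT, the NF-Y box, each searched on both strands.
Id2, chr12:25096043-25096342, minus strand: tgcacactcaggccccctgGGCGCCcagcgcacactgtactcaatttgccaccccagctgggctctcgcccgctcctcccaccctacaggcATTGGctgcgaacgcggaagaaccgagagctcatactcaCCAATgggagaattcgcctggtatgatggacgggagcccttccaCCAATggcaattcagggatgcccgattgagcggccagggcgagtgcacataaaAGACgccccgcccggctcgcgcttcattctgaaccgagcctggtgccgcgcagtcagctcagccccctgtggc
Id3, chr4:136143572-136143871, plus strand: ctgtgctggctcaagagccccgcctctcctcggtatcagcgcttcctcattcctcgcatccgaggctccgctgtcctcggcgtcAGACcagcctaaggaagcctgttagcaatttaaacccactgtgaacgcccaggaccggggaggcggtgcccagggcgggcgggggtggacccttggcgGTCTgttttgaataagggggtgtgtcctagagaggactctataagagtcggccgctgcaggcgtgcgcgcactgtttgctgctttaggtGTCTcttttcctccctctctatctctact
Id4, chr13:48260866-48261165, plus strand: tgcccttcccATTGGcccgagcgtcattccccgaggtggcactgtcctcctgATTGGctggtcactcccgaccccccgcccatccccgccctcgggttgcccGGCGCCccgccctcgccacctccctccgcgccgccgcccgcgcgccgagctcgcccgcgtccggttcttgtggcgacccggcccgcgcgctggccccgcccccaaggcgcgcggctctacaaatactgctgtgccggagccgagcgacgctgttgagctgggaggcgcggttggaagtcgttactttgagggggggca
In the Id2 window GGCGCC stood 1 time, GTCT 1 time and CCAAT 3 times. The Id4 window held 1 GGCGCC and 2 CCAAT and no GTCT, and the Id3 window held 3 GTCT and neither of the others. Of 32851 windows of this length in the table, 11.9% held GGCGCC, 88.0% GTCT and 37.4% CCAAT. A match is a string of letters and not a measured binding site.

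Values are FPKM as deposited, fragments per kilobase of gene length scaled to the depth of the library. Fold changes and tests are from limma on log2(FPKM + 0.1) after scaling by trimmed mean of M-values (TMM), which raised HA IP to input ratios by 0.84 log2 units on average before the pseudocount, and by less for genes near or below it. Calls use a Benjamini-Hochberg adjusted p under 0.05, from two-sided tests corrected across the 15605 genes. The animals are separate mice, so the errors span animals. As a check of the precipitation, Aldh1l1, an astrocyte enzyme gene, averaged 406 ± 26.2 FPKM in HA IP and 21.8 ± 0.926 in input (SD, n = 4 each). For the tagged gene itself, Rpl22, the fold change was 0.69 on the log2 scale (SE 0.13) with TMM and -0.14 without it. Libraries held 33834388 to 53625125 fragments, both extremes from animal 595. All 12 astrocyte markers were higher in HA IP, and all 10 neuron, 8 microglia, 8 oligodendrocyte and 6 oligodendrocyte precursor markers were lower. Of 8 mural markers, 1 was higher (Pdgfrb, log2 fold change 2.37), 3 were lower and 4 did not pass. Of 7 fibroblast markers, 1 was higher (Col1a2, 1.36), 2 were lower and 4 did not pass. Ependymal and choroid plexus markers were higher for 3 of 4 tested, and the list summed to 4.07 to 6.85 scaled FPKM in input and 43.4 to 56.1 in HA IP. Most of that sum was Rarres2, with 4.02 to 6.92 deposited FPKM in input and 27.7 to 40.2 in HA IP, whereas Ccdc153 had a log2 fold change of -1.58 and Tmem212 was at 0 in 2 HA IP libraries. The part of those cells in the levels below was not tested.

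Of the 10 genes, 7 were higher in HA IP, 2 were lower and 1 did not pass. The higher ones were the 4 Id genes, the BMP type I receptor genes Bmpr1a and Bmpr1b, and Tgfb2, and the lower ones were Tgfbr1 and Tgfb3. Most genes differed between these libraries, 83.3% of all tested, with 42.1% higher and 41.2% lower, so a call by itself says little. In size, the median log2 fold change was 2.75 over the 10 genes against 0.01 over all genes tested. The genes were chosen with earlier results of these data known, so this gap is a description and not a test. Id2 had the smallest rise of the Id genes, and 5.8% of tested genes had a change at least as large. On the deposited scale, where 84.9% of genes were called, 23.3% higher and 61.6% lower, the same 7 were higher and the other 3 lower. The 4 input and 4 HA IP values did not overlap for 9 of the 10 genes after scaling, as for 78.6% of all tested genes, and for all 10 on the deposited scale, as for 80.9%. RNA from pooled cells cannot tell fewer cells of a type from less RNA per cell, and a precipitate adds how far a transcript sits on ribosomes.

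**Figure D1:**
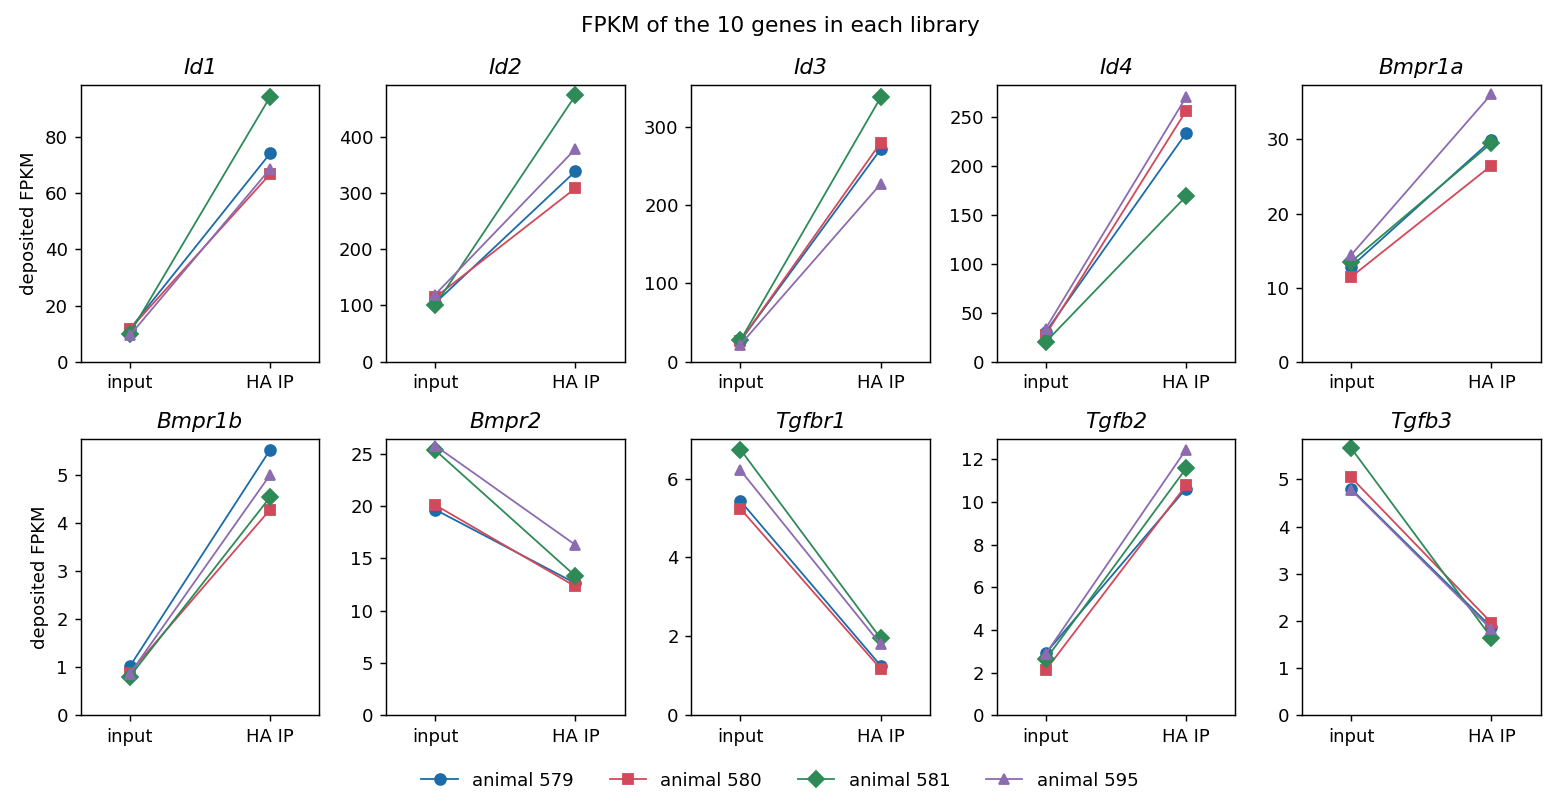
Deposited FPKM (linear axes from 0) of the 10 genes in the input and HA IP libraries, with a line joining the 2 libraries of an animal. The lines of the Id genes, Bmpr1a, Bmpr1b and Tgfb2 rise in all 4 animals, and those of Bmpr2, Tgfbr1 and Tgfb3 descend in all 4 on this scale.

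Id3, the family member with the largest change, had 26.6, 26.8, 27.3 and 21.9 FPKM in the inputs of animals 579, 580, 581 and 595 and 271, 280, 337 and 227 FPKM in their HA IP libraries. The groups were far apart, with animal 581 highest and animal 595 lowest in HA IP. Its log2 fold change was 4.27 (SE 0.12, adjusted p = 9.02e-10), a 19.2-fold rise. Id4, which has its own place in neural precursors and astrocytes, had 30.4, 27.6, 20.2 and 34.0 FPKM in input and 233, 256, 169 and 270 FPKM in HA IP, in the same order of animals. Here animal 581 was lowest in both kinds of library, and the groups again did not overlap. Id4 rose by 3.89 (SE 0.19, adjusted p = 2.71e-08).

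Id1, long known also as a gene of vessel endothelium, had 11.6, 11.5, 10.05 and 9.34 FPKM in input and 74.1, 66.7, 94.2 and 68.6 FPKM in HA IP. It rose by 3.65 (SE 0.11, adjusted p = 1.31e-09), with animal 581 apart from the other 3 at the top. Id2 was the most abundant of the 10 genes in both groups, with 104, 114, 101 and 119 FPKM in input and 338, 308, 473 and 378 FPKM in HA IP. Its rise was the smallest in the family at 2.60 (SE 0.13, adjusted p = 2.55e-08), or 6.05-fold. The library groups were separated for every Id gene on both scales. Behind these values stood 346 to 8109 fragments per input library and 2162 to 26968 per HA IP library.

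The difference within the family kept its sign in nearly every animal. The log2 ratio of HA IP to input of Id1 exceeded that of Id2 by 1.05 ± 0.106 (SD, n = 4 animals), and that of Id3 exceeded Id4 by 0.17 to 0.56 in the single animals. Id1 minus Id3 was -0.86 to -0.41, Id2 minus Id3 -1.94 to -1.39 and Id2 minus Id4 -1.77 to -0.83. Only between Id1 and Id4 did the sign vary, with a mean difference of -0.24 ± 0.351 and Id1 ahead in animal 581 alone. A two-sided exact sign-flip permutation test over 4 animals cannot give a p below 1 in 8, and so cannot reach the threshold. That smallest value was reached by 7 of the 8 differences tested between relatives (exact permutation test, adjusted p = 0.143 over the 8), and Id1 against Id4 gave an exact p of 0.375.

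Within HA IP, animal 581 went one way for 3 Id genes and the other way for the fourth. Its HA IP library lay above the group mean by 0.30 log2 units for Id1, 0.33 for Id2 and 0.26 for Id3, the highest of the 4 libraries each time, and at -0.47 for Id4, the lowest. In input the same animal was at -0.08, -0.13 and 0.09 for Id1 to Id3 and at -0.45 for Id4. The low Id4 level was thus common to both libraries of that animal, and its raised Id1 and Id2 levels appeared in HA IP and not in input. The SD of log2 Id4 levels was 0.33 in input and 0.32 in HA IP, wider than in 90.8% and 74.2% of tested genes, while the SDs of Id1 to Id3 lay near the medians of 0.14 and 0.20. In the HA IP library of animal 581 the 12 astrocyte markers summed to 24152 scaled FPKM, against 26600 to 28116 in the other 3, a sum made up mostly of Glul and Aldoc. Single markers went the other way: Gfap, an intermediate filament gene of astrocytes, had 1076 deposited FPKM there against 310 to 449, and 66.1 against 21.3 to 26.8 in input. Sox9 was also highest there, at 161 against 131 to 135 FPKM. Oligodendrocyte precursor markers summed to 12.9 scaled FPKM against 9.05 to 10.6, by C1ql1 (4.17 deposited FPKM against 1.11 to 1.55), while Gpr17 and Cspg4 were at their lowest in that library. The part of these levels in the Id pattern was not tested. Rows for A330033J07Rik, a long noncoding RNA gene that overlaps Id4, are also in the files, and the strand setting of the counting is not given in the sources used here.

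**Figure D2:**
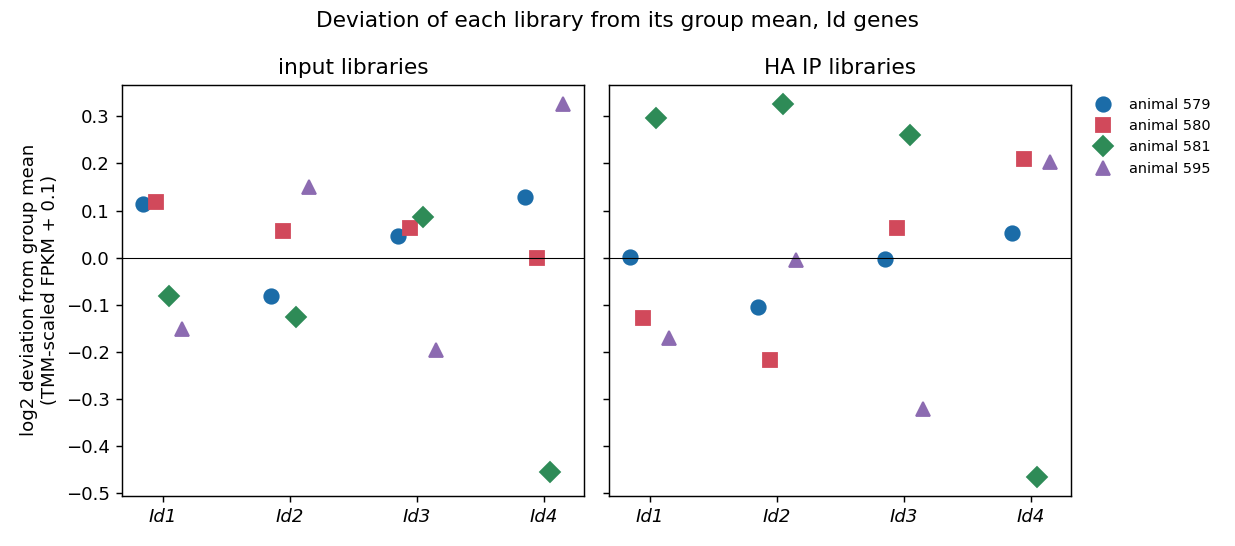
Log2 deviation of each library from the mean of its group (TMM-scaled FPKM + 0.1) for Id1 to Id4, input on the left and HA IP on the right, with 1 symbol per animal. In HA IP, animal 581 is at the top for Id1, Id2 and Id3 (0.26 to 0.33) and at the bottom for Id4 (-0.47), and for Id4 it is at the bottom in input too (-0.45).

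Of the 3 BMP receptor genes in the set, both type I genes rose and the type II gene did not pass. Bmpr1a, a type I receptor gene on chromosome 14 from 34411061 to 34503336, had 12.8, 11.4, 13.5 and 14.4 FPKM in input and 29.9, 26.5, 29.5 and 36.1 in HA IP. It rose by 2.05 (SE 0.10, adjusted p = 2.84e-08), and the 4 animals lay within 1.94 to 2.10. Bmpr1b, its paralog on chromosome 3 from 141837135 to 142169585, had 1.02, 0.893, 0.808 and 0.865 FPKM in input and 5.53, 4.29, 4.55 and 5.01 in HA IP. It rose by 3.09 (SE 0.12, adjusted p = 5.54e-09). No input library came near an HA IP library for either gene.

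The log2 ratio of Bmpr1a minus that of Bmpr1b was -1.18 to -0.89 in the 4 animals (exact permutation test, adjusted p = 0.143). The pseudocount bears on this, because the length used for Bmpr1b in the FPKM was 26154 bases against 5468 for Bmpr1a, which lowers its FPKM. With a pseudocount of 1 the mean of Bmpr1a minus Bmpr1b went from -1.04 to -0.20, and with 0.01 it was -1.19. In fragments, Bmpr1b had 781 to 1213 per input library and 4435 to 6608 per HA IP library, and Bmpr1a 2215 to 4219 and 6419 to 7461. RefSeq lists 12 transcripts for Bmpr1b and 5 for Bmpr1a.

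Bmpr2, a type II receptor gene that serves BMP ligands (chromosome 1, 59764279 to 59878081), was the member without a call. Its deposited levels were 19.7, 20.1, 25.4 and 25.8 FPKM in input and 12.6, 12.3, 13.3 and 16.3 in HA IP. On that scale the groups did not overlap, and HA IP was lower by -0.73 (SE 0.12, adjusted p = 2.74e-04). After TMM scaling the groups overlapped and the log2 fold change was 0.11 (SE 0.12, adjusted p = 0.421), so the direction depends on the scaling. Relative to the median of all genes, which lay at -0.75 on the deposited scale and 0.01 after scaling, it stood close to the middle both times.

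Tgfbr1 encodes the type I receptor of TGF-beta (chromosome 4, 47353222 to 47414926). It had 5.43, 5.24, 6.74 and 6.21 FPKM in input and 1.26, 1.18, 1.95 and 1.80 in HA IP. It fell by 1.08 on the log2 scale (SE 0.16, adjusted p = 1.33e-04), in each of the 4 animals, from 1049 to 1884 fragments per input library to 295 to 495. Animals 581 and 595 were the upper ones in both groups, and no HA IP library reached the lowest input.

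The ligand genes went opposite ways. Tgfb2, on chromosome 1 from 186622787 to 186709697, had 2.91, 2.12, 2.62 and 2.88 FPKM in input and 10.6, 10.8, 11.6 and 12.5 in HA IP. It rose by 2.90 (SE 0.11, adjusted p = 5.01e-09), and its HA IP values were unusually even, with an SD of 0.07 log2 units, below that of all but 6.3% of tested genes. Tgfb3, on chromosome 12 from 86056743 to 86079041, had 4.80, 5.04, 5.66 and 4.78 FPKM in input and 1.87, 1.96, 1.65 and 1.82 in HA IP. It fell by 0.61 on the log2 scale (SE 0.11, adjusted p = 3.87e-04), with animal 581 highest in input and lowest in HA IP. The ratio of HA IP to input was higher for Tgfb2 than for Tgfb3 by 3.16 to 3.83 log2 units in the 4 animals (mean 3.51; exact permutation test, adjusted p = 0.143).

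**Figure D3:**
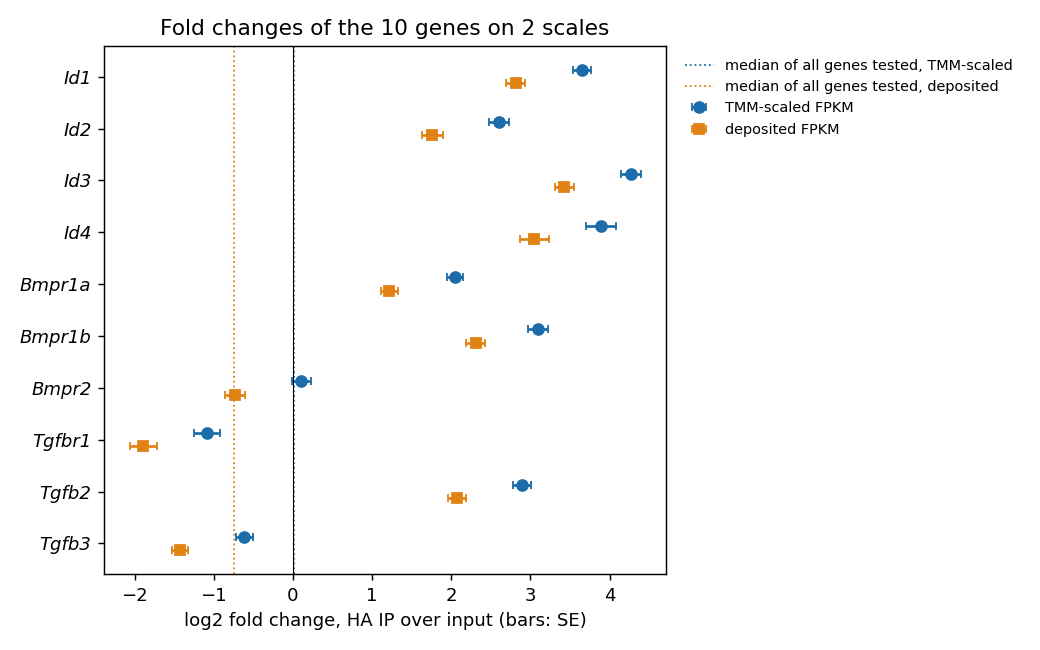
Log2 fold change of HA IP over input with its SE for the 10 genes, after TMM scaling (circles) and on the deposited scale (squares), with dotted lines at the medians of all genes tested. Of the 10, Bmpr2 alone changes sign between the scales, from 0.11 to -0.73.

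By level per length, the order in input was Id2 (110 ± 8.62 FPKM), Id4, Id3, Bmpr2, Bmpr1a, Id1, Tgfbr1, Tgfb3, Tgfb2 and Bmpr1b (0.896 ± 0.0888; SD, n = 4). The ranges of Id4, Id3 and Bmpr2 overlapped from one to the next, as did those of Bmpr1a and Id1 and of Tgfbr1 and Tgfb3. In HA IP the order was Id2 (374 ± 71.7 FPKM), Id3, Id4, Id1, Bmpr1a, Bmpr2, Tgfb2, Bmpr1b, Tgfb3 and Tgfbr1 (1.54 ± 0.385). There Id2, Id3 and Id4 overlapped in turn, as did Bmpr2 and Tgfb2, and Tgfb3 and Tgfbr1. Id1 thus moved past both Bmpr2 and Bmpr1a, and Tgfb2 past Tgfb3 and Tgfbr1. The place of Bmpr1b is uncertain, given the length behind its FPKM.

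Genes whose 4 per-animal ratios lay nearest to those of each member are given as a description of likeness over 4 animals. The nearest to Id3 was Eci1, at a root mean square difference of 0.04 log2 units, to Id4 Ccdc8 at 0.06, to Id2 Jag1 at 0.06 and to Id1 S100a16 at 0.09. For the receptors these were Pou3f4 (Bmpr1a), Retsat (Bmpr1b), Bfsp1 (Bmpr2) and Rreb1 (Tgfbr1), and for the ligands Tnfsf12 (Tgfb2) and Klc1 (Tgfb3), at 0.03 to 0.06.

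The rest of the pathway was read from 8 lists with 98 entries, 89 of them tested: 40 were higher, 36 lower and 13 did not pass, with a median log2 fold change of 0.08. Without scaling 26 were higher and 51 lower. Of all genes tested, 42.1% were higher and 41.2% lower, or 23.3% and 61.6% without scaling. The counts over all lists lay not far from these shares, beside which the counts of each list are to be read. Of 9 tested genes in the BMP ligand list, 4 were higher and 4 lower (median -0.47), or 2 and 5 on the deposited scale. That list includes Bmp1, a protease gene and not a ligand gene, which was called higher at 0.66 (SE 0.07). Bmp1 had -0.17 and no call on the deposited scale. Bmp7 rose by 2.67 (SE 0.10), from 5.21 ± 0.327 to 19.1 ± 2.56 FPKM, and Gdf10, a divergent family member, by 3.68 (SE 0.17), whereas Bmp3 changed by -3.98 (SE 0.22). Bmp6 rose by 1.04 (SE 0.20), a call that ends on the deposited scale, where it had 0.21. Bmp4 had -0.47 (SE 0.38, adjusted p = 0.265) and did not pass; without the HA IP library of animal 595 it had -0.89 and passed (adjusted p = 0.00313), as it did on the deposited scale at -1.25, while without that of animal 579 it had -0.19. Of 6 tested TGF-beta and activin genes, 2 were higher and 3 lower (median -0.91), or 2 and 4 without scaling. Inhbb, an activin subunit gene, rose by 2.33 (SE 0.15), and Tgfb1 and Inha changed by -1.09 (SE 0.32) and -1.57 (SE 0.19). Inhba, the other activin subunit gene, had -0.83 (SE 0.44, adjusted p = 0.102), and passed with animals as a block (adjusted p = 0.0309), without the input of animal 579 (-1.09) and on the deposited scale (-1.65). Its value leaned on the input of animal 581, with 27.1 FPKM against 5.49 to 8.16 in the other inputs, and without that library it was -0.33 and did not pass.

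Among 13 other receptor and co-receptor genes, 3 were higher, 8 lower and 2 did not pass (median -1.40), or 2 higher and 10 lower without scaling. Tgfbr2, the type II partner of Tgfbr1, changed by -1.40 (SE 0.15), from 1.87 ± 0.201 to 0.351 ± 0.0717 FPKM. The activin type I gene Acvr1c and the type II gene Acvr2a changed by -3.01 (SE 0.17) and -1.85 (SE 0.20). Acvr2b changed by -0.53 (SE 0.18), a call lost in 7 of the 12 fits that left out an animal or a library. The endothelial receptor genes Acvrl1 and Eng changed by -1.48 (SE 0.12) and -1.94 (SE 0.18). Beside them, 8 of 9 endothelial markers were lower and 1 did not pass, and their summed scaled FPKM was 16.9 to 23.3 in input and 4.54 to 6.18 in HA IP, with no marker at 0. The BMP type I gene Acvr1 had -0.022 (SE 0.21) and the co-receptor gene Tgfbr3 had -0.38 (SE 0.25), and neither passed; on the deposited scale both were lower, at -0.83 and -1.16. Leaving out the HA IP library of animal 595 gave Tgfbr3 a call at -0.61 (adjusted p = 0.019), and leaving out that of animal 579 gave -0.16. In the HA IP libraries of animals 595 and 580 the mural marker sum was 64.1 and 51.6 scaled FPKM. The other HA IP libraries had 19.95 to 25.4 and the inputs 31.7 to 40.5. Fibroblast markers summed to 53.5 and 40.1 in animals 595 and 580, against 16.5 and 22.2 in the other HA IP libraries and 21.8 to 28.0 in input. The mural sum was carried by Vtn, at 38.8 and 29.2 deposited FPKM against 7.84 and 9.43. Anpep went the same way, at 1.92 and 0.941 against 0.340 and 0.425. Rgs5 however was lowest in animal 580 and Kcnj8 in animal 595. In the fibroblast list, Col1a2, Dcn, Lum, Slc6a13 and Igf2 were each highest in animal 595 and next in animal 580. Igf2, for example, had 10.4 and 6.25 FPKM against 1.81 and 1.92. Col1a1 and Col3a1 of that list were highest in animal 581. The part of these cells in the receptor levels was not tested. Rgma, a BMP co-receptor gene, rose by 3.25 (SE 0.08), from 15.1 ± 0.993 to 80.8 ± 5.99 FPKM. Rgmb of the same list, named after its values were seen, changed by -1.54 (SE 0.11). Bambi, a decoy receptor gene, rose by 0.93 (SE 0.25), and lost that call on the deposited scale at 0.19. Its HA IP library of animal 580 lay 0.81 log2 units above the group mean.

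Of the 8 SMAD genes, 5 were higher, 1 was lower and 2 did not pass (median 0.51), while without scaling 2 were higher and 4 lower. Smad5, which carries BMP signals, rose by 2.03 (SE 0.11), from 1.98 ± 0.129 to 4.77 ± 0.528 FPKM. Smad6, the inhibitory SMAD of BMP signalling and a known target of it, rose by 2.63 (SE 0.15), from 0.573 ± 0.115 to 2.36 ± 0.335. Smad7, the inhibitory SMAD tied more to TGF-beta, changed by -0.97 (SE 0.19), from 6.51 ± 1.37 to 1.83 ± 0.516. Smad1 at 0.82 (SE 0.10) and Smad9 at 0.64 (SE 0.21) were called higher after scaling and had -0.014 and -0.18 without it, where neither passed. The Smad9 call was also lost without animal 579 or 595. Smad3, which carries TGF-beta signals, had -0.26 (SE 0.20) and did not pass. Without the HA IP library of animal 581 it had -0.48 and passed (adjusted p = 0.00283), as it did on the deposited scale at -1.09, while without that of animal 580 it had -0.092.

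Secreted antagonists divided evenly, with 6 of 13 higher and 6 lower (median 0.08), or 4 and 8 on the deposited scale. Chrdl1, a BMP antagonist gene, rose by 3.26 (SE 0.10), Nog by 1.52 (SE 0.16), Fstl1 by 1.46 (SE 0.08) and Bmper by 1.12 (SE 0.16), of which Bmper lost its call on the deposited scale at 0.31. The protease gene Htra1 rose by 4.82 (SE 0.09). In contrast Fst, whose product binds activin, changed by -2.60 (SE 0.36) and Chrd by -1.18 (SE 0.24). Of 12 genes for latency and activation of TGF-beta, 5 were higher and 5 lower (median -0.15), or 5 and 7 without scaling. Ltbp1 and Ltbp3, genes of latent TGF-beta binding proteins, rose by 4.03 (SE 0.14) and 2.44 (SE 0.07), and Ltbp4 changed by -1.97 (SE 0.18). The integrin gene Itgav rose by 1.22 (SE 0.12), its partner Itgb8 changed by -0.55 (SE 0.12), and its partner Itgb5, named after its values were seen, rose by 3.58 (SE 0.10). The convertase gene Furin had 0.12 (SE 0.13), which did not pass, and was lower at -0.70 on the deposited scale.

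Of 12 intracellular brakes, 4 were higher, 5 lower and 3 did not pass (median 0.13), and without scaling 1 was higher and 9 were lower. The phosphatase gene Ctdsp1 rose by 2.06 (SE 0.08). Skil and Pmepa1, both known as genes that TGF-beta induces, changed by -2.76 (SE 0.34) and -1.24 (SE 0.38). Smurf1, a ubiquitin ligase gene, was called higher at 0.38 (SE 0.12) and lower at -0.44 on the deposited scale; the first call was lost without animal 579 or 580. Ski had 0.03 (SE 0.13) and Tob1 0.23 (SE 0.14), and neither passed; without scaling both were lower, at -0.81 and -0.61.

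The bHLH list mixed E protein genes, Notch effector genes and genes of cell lineages, so it is not a list of Id partners alone. Of its 16 genes, 11 were higher, 4 lower and 1 did not pass (median 1.26), with 8 and 4 when left unscaled. Of all genes tested, 42.1% were higher and 41.2% lower, or 23.3% and 61.6% when left unscaled. The E protein genes Tcf3 and Tcf4 rose by 2.03 (SE 0.11) and 1.996 (SE 0.09), and Tcf12 by 0.89 (SE 0.10), with Tcf12 at 0.09 and no call on the deposited scale. The Notch effector genes Hes5 and Hey1 rose by 3.39 (SE 0.09) and 1.63 (SE 0.14). Olig1 and Olig2, known from the oligodendrocyte lineage, rose by 2.67 (SE 0.13) and 2.32 (SE 0.34), while the 6 oligodendrocyte precursor markers summed to 26.8 to 30.4 scaled FPKM in input and 9.05 to 12.9 in HA IP. Neurod2, Neurod6 and Bhlhe22, bHLH genes of cortical neurons, changed by -2.51 (SE 0.11), -3.46 (SE 0.13) and -3.66 (SE 0.25), beside 10 of 10 lower neuron markers with sums of 1722 to 1883 scaled FPKM in input and 122 to 149 in HA IP.

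**Figure D4:**
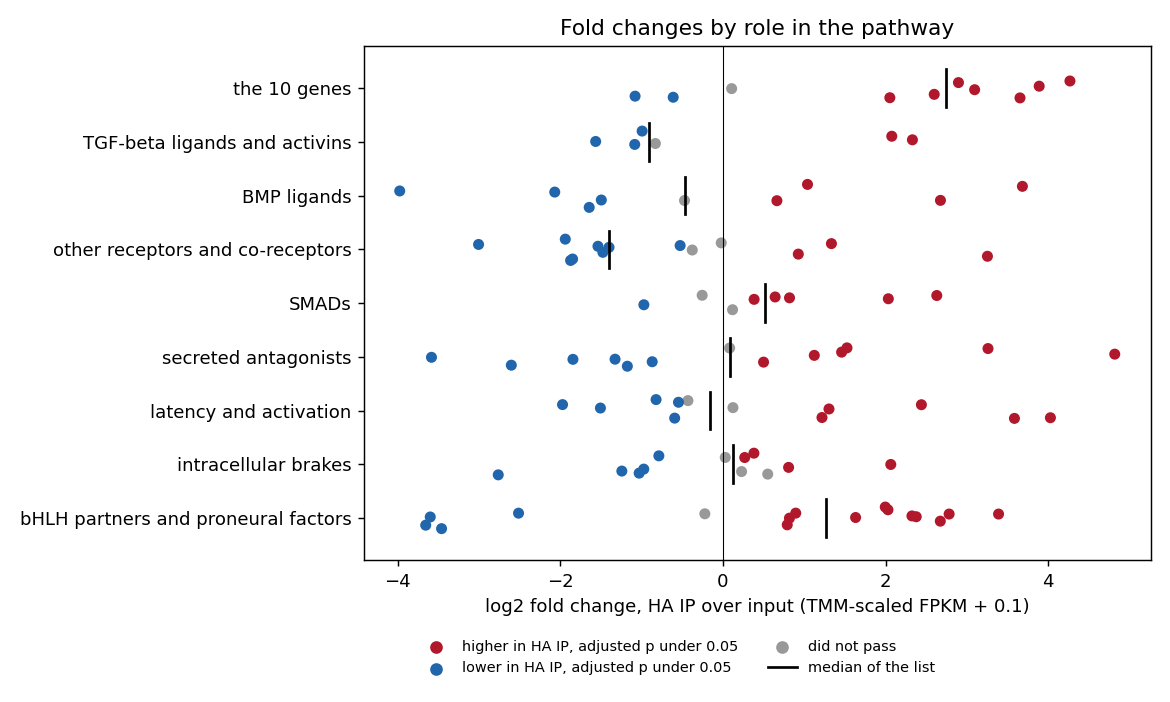
Log2 fold change of HA IP over input (TMM-scaled FPKM + 0.1) for the 10 genes and 8 lists of related genes, 1 point per tested gene, coloured by its call, with a bar at the median of each list. The 10 genes have a median of 2.75, the other receptor genes one of -1.40 and the bHLH genes one of 1.26.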

How the data were processed

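The deposited files, 1 per library, hold 1 value for each of 24060 gene symbols. Libraries were paired-end, stranded and mRNA-enriched, per the labels' protocols. Tools named in the submitters' processing notes are STAR, HTSeq and bcl2fastq 2.17, with build mm10. Annotation, strand setting and other versions were not given in these sources. No header names the unit. The values deposited by the authors were taken as FPKM. Fitted gene lengths and library totals turned all 142235 non-zero values into whole fragments (tolerance 0.001), for 20045 genes. For a gene above 0 in few libraries some length can fit by chance, so that count is in part fixed beforehand. Recovered fragments summed to 99.91% to 99.96% of the fitted library totals.

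FPKM were divided by unweighted TMM factors (0.3 of M-values and 0.05 of A-values trimmed) and tested as log2(FPKM + 0.1) with limma 3.58.1 in R 4.3.3 with an intensity trend, without a term for animals; a pseudocount shrinks folds of low genes. Genes needed 0.246 CPM, or 10 fragments in a median library, in 4 libraries and 15 fragments in all. The fit was tested on simulated data with few genes changed, no TMM scaling and no deviation shared within animals. Most genes differed in the real libraries, so that test does not check the scaling or the calls made here. Libraries of 1 animal deviated together (correlations of 0.22 to 0.40, against at most 0.11 between animals); the shared number in the titles marks the animal.

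Named genes are the 10 genes, preset examples and the largest rise and fall of each list, and the nearest gene to each member by its per-animal ratios; some genes that this rule names are not reported here. Genes and lists were chosen with earlier results of these data known. Alternatives were the deposited scale, pseudocounts of 0.01 and 1, no filter or one of 1 CPM, animals as a block, limma-voom on the recovered fragments, and leaving out each animal or library. Cripto was not matched to a row by that name.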

Additional observations from a re-analysis of the deposited data

Results flagged for a closer look

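Of 32 groups of 4 values examined for the 10 genes and library totals, 4 held a value far from the other 3, where chance gives about 1 in 20. Id3 in input was 21.9 FPKM in animal 595 and 26.6 to 27.3 in the others. The log2 ratio of Bmpr1a was 1.94 in animal 581 and 2.09 to 2.10 in the others. Animal 595 had both the deepest input library, at 53625125 fragments, and the shallowest HA IP library, at 33834388. The 10 genes kept their calls without either library.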

How the results depend on the processing

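Over 19 alternatives the 9 called genes of the set stayed past the threshold in the same direction, with adjusted p of at most 0.00339; the lowest and highest log2 fold changes were 3.43 and 4.37 for Id3, 1.76 and 2.69 for Id2 and -1.89 and -0.83 for Tgfbr1. Bmpr2 reversed on the deposited scale, to -0.73. On that scale 3643 of all genes were higher in place of 6567, and 9613 lower in place of 6425, and 26 pathway genes were higher in place of 40. The sign differed between the scales for 15 of the 89 pathway genes tested. Among the genes named here, those also reversed there included Rpl22 (-0.14), Bmp1 (-0.17), Smad1 (-0.014), Smad9 (-0.18), Furin (-0.70), Ski (-0.81), Smurf1 (-0.44), Tob1 (-0.61) and the mural marker Vtn (-0.68). Leaving out single animals or libraries gave Acvr1 -0.19 to 0.12 and Ski -0.073 to 0.12, with no call for either; the cause was not tested. With the animals as a block (replicate block), 6717 genes were higher and 6592 lower, and among the named genes only the call of Inhba changed. A pseudocount of 1 took the difference between Id1 and Id2 to 0.93, between Bmpr1a and Bmpr1b to -0.20 and between Tgfb2 and Tgfb3 to 2.93, and one of 0.01 took that between Bmpr1a and Bmpr1b to -1.19.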
